A study of Mus musculus with 4 samples.

Results

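Red blood cell rich spots are the capture spots of 4 mouse lung sections in which transcripts of the adult globins took the largest share of all transcripts. They were chosen by the measured values themselves: among spots with at least 500 unique molecular identifiers (UMIs, each standing for 1 captured transcript), the summed UMIs of Hba-a1, Hba-a2, Hbb-bs and Hbb-bt were divided by the UMIs of the spot, and the highest 10% of spots in each section were taken. This gave 488 spots of 4883 with enough UMIs, out of 4933 deposited. Of these, 82 of 820 came from the non-vaped (NV) male, 46 of 460 from the NV female, 156 of 1561 from the vaped (V) male and 204 of 2042 from the V female.

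The sections came from C57BL/6J mice, 1 section from each of 1 male and 1 female per group, of tissue labelled as the upper pulmonary branches. V mice had breathed aerosol of a flavoured vape juice from JUUL pens in a whole-body chamber for 4 hours a day on 5 days a week over 9 weeks, starting at 6 to 8 weeks of age, and NV mice had not been vaped. Transcripts were captured on Visium slides, whose spots are small regions that can each hold several cells of different types. Lung markers were abundant in the chosen spots of every section, with 6 parenchyma genes at 27987 to 43908 CPM in sum (UMIs per 1000000 UMIs without the globins). No deposited count belonged to a single red cell, and a sum over spots cannot tell more red cells from more RNA per cell.

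Red blood cells carry oxygen on haemoglobin, a tetramer of alpha chains (encoded by Hba-a1 and Hba-a2) and beta chains (Hbb-bs and Hbb-bt) that each bind haem. Mammalian red cells lose their nucleus before they enter the blood, and the young cells, called reticulocytes, keep left-over messenger RNA for some days, most of it for globins. The lung takes the whole output of the right heart through its capillaries, so red cells lie throughout its tissue, in capillaries, larger vessels and any blood left on a cut surface.

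The globins took 3.89%, 5.13%, 5.69% and 6.40% of UMIs in the chosen spots of the NV male, NV female, V male and V female. In the other spots of the same sections they took 0.919%, 0.876%, 1.84% and 1.03%. These levels are a description, since the globins chose the spots. The V male stood apart in its other spots, and its whole section held 2.25% globin UMIs against 1.17% to 1.37% in the other 3 sections.

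The chosen spots held 28.3%, 34.4%, 27.0% and 29.4% of all globin UMIs in the NV male, NV female, V male and V female, so most globin transcripts lay outside them. Each of the other spots also held at least 1 globin UMI. The shares fell without a gap at the limit. The last spot inside had 2.389%, 3.191%, 4.021% and 4.168% in the NV male, NV female, V male and V female, and the first spot outside had 2.382%, 3.187%, 4.019% and 4.167%. The highest single spots reached 10.9%, 26.4%, 17.2% and 21.5% in the same order.

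**Figure D1:**
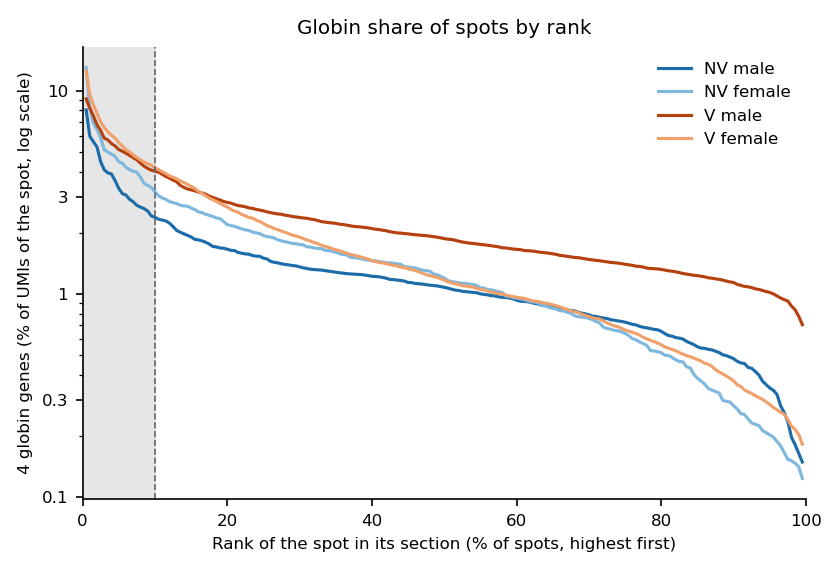
Share of a spot's UMIs from the 4 globin genes (log axis, percent) against the rank of the spot in its section (percent of spots, highest first), 1 line per section, with the chosen 10% in grey. The lines cross the limit between 2.389% and 4.168% with no step there, and the V male lies above the other 3 sections over most other spots.

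Hbb-bs supplied the largest part of the globin UMIs in the chosen spots, 43.0%, 48.7%, 46.8% and 48.4% in the NV male, NV female, V male and V female. Hbb-bt supplied a smaller part, 9.82%, 7.83%, 8.59% and 8.55%. Hba-a1 supplied 20.4% to 22.8% and Hba-a2 20.7% to 26.8%. The make-up was similar in the other spots, where Hbb-bs held 39.7% to 52.1% and Hbb-bt 7.76% to 8.31%. Hba-a1 (chr11:32283511-32284465) and Hba-a2 (chr11:32296489-32297298, both GRCm38) cannot be told apart with confidence, since their annotated transcripts share 537 of 538 aligned bases. The transcripts of Hbb-bs (chr7:103826534-103828096) and Hbb-bt (chr7:103812524-103813996) share 582 of 630.

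The 120 bases before the RefSeq transcription starts of the 4 globins are shown because the transcripts of these genes define the spots. They are RefSeq sequence of GRCm38.p6, written 5′ to 3′ on the coding strand. The gene spans given here come from GENCODE, whose widest transcripts start earlier, so every stretch printed lies within its gene's span or reaches into it. Capitals mark matches on either strand to AGATAA, which GATA factors bind, to the pattern CCNCNCCC, to the sequence CCAAT and to the box TATAAA. The pattern CCNCNCCC covers the CACCC box and also letters without CACCC, such as CCCCGCCC.
Hba-a1 (chr11:32283552-32283671, plus strand): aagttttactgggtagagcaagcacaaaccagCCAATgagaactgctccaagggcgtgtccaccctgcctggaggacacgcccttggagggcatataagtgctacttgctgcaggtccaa
Hba-a2 (chr11:32296372-32296491, plus strand): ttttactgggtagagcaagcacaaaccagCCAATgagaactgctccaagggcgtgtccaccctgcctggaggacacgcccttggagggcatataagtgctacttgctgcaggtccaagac
Hbb-bs (chr7:103827929-103828048, minus strand): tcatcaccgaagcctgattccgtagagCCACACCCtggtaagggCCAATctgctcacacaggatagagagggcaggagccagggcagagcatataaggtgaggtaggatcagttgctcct
Hbb-bt (chr7:103813924-103814043, minus strand): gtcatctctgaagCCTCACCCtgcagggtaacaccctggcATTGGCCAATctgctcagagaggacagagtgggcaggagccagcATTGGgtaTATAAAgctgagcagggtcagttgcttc
CCAAT was found in all 4 of these stretches and in 21.3% of the 32851 promoter stretches of the same length. The pattern CCNCNCCC was found in Hbb-bs and Hbb-bt and in 34.6% of all. A match says only that these letters are present.

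Outside the globins, several genes of late red cells were among those higher in the chosen spots. The remaining 12962 genes that passed the count filter were compared between the chosen spots and the other spots of the same section on UMI sums, with the 4 globins left out of every total. With edgeR's quasi-likelihood test and a term for each section, 15 genes were called higher, 0.116% of those tested, and 59 lower, 0.455%. Genes were called where the adjusted p (Benjamini-Hochberg) lay under 0.05 and the log2 difference went past 0.25 in size. At an unadjusted p under 0.05 there were 1361 genes. The genes called higher included Slc4a1, Alas2, Rec114, Fam220a and Tent5c, and 13 of the 15 were higher in all 4 sections.

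Of 57 genes in 4 lists of red cell biology (membrane, haem synthesis, late maturation and transcription factors), 43 could be tested, and 8 of them were called higher and none lower. That is 18.6%, where 0.116% of all genes were called higher. The gene lists, here and below, were chosen with earlier results of these data known, so these counts are a description. The median log2 fold change of the 43 was 0.10, beside -0.00 over all genes tested, and the 35 that were not called ranged from -0.94 to 0.56. Most genes of the lists therefore did not pass.

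Alas2 (chrX:150547375-150570638, GRCm38), the red cell form of the first enzyme of haem synthesis, was at 121, 112, 125 and 208 CPM (UMIs per 1000000 non-globin UMIs) in the chosen spots of the NV male, NV female, V male and V female. In the other spots it was at 23.6, 23.6, 38.0 and 26.1 CPM. Every chosen set lay above every set of other spots, and within a section the rise went from 3.30-fold in the V male to 7.97-fold in the V female. The log2 fold change was 2.37 (SE 0.15, adjusted p = 1.3e-07, edgeR). Alas2 was called in 17 of 18 alternative analyses, the exception being the fit with no section term.

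Tent5c and Bpgm, both with known red cell roles, also rose by more than 1 on the log2 scale with enough counts to follow in each section. Tent5c (chr3:100451628-100489324), a poly(A) polymerase that stabilises messenger RNAs, was at 59.9, 44.2, 46.0 and 55.4 CPM in the chosen spots of the NV male, NV female, V male and V female against 21.4, 15.3, 17.2 and 19.6 CPM in the others (log2 fold change 1.43, SE 0.12). Bpgm (chr6:34476207-34505613), which makes the 2,3-bisphosphoglycerate that lowers the oxygen affinity of haemoglobin, was at 82.0, 60.8, 90.3 and 92.0 CPM against 35.4, 25.6, 45 and 33.6 (1.21, SE 0.10). For both genes the chosen and other spots did not overlap.

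Slc4a1 (chr11:102348824-102366203), the band 3 anion exchanger and a main protein of the red cell membrane, had the highest log2 fold change, 3.06 (SE 0.40), on few counts. It was counted 9, 3, 3 and 15 times in the chosen spots of the NV male, NV female, V male and V female and 14, 3, 6 and 20 times in the far larger sets of other spots. It was too low for the filter in 5 of the 18 alternatives. Epb41 (chr4:131923413-132075321), protein 4.1 of the same membrane skeleton, was at 92.2 to 119 CPM against 58.3 to 100 CPM, with a log2 fold change of 0.45 (SE 0.09), and was called in 9 of 18 alternatives. The V male reached only 1.18-fold for Epb41.

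The other 7 membrane genes tested did not pass. Aqp1, a water channel of red cells and of lung endothelium, differed by 0.05 (SE 0.09), Gypc by -0.27, Tmod1 by -0.20, Sptb by 0.12, Dmtn by 0.04 and Tspan33 by 0.31. Ank1, the red cell ankyrin, which striated muscle also expresses, differed by -0.94 (SE 0.24, adjusted p = 0.098). Summed over its 17 genes, the membrane list was 0.981-fold in the V male to 1.17-fold in the NV male.

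Apart from Alas2, none of the 13 tested genes of haem synthesis and iron import passed. Slc25a37, the mitochondrial iron importer mitoferrin, came nearest at 0.47 (SE 0.13, adjusted p = 0.12) and was higher in all 4 sections. The enzymes after the first step stayed between -0.45 (Uros) and 0.14 (Fech, ferrochelatase, and Urod), with Alad at 0.10, Cpox at -0.05 and Ppox at 0.01. Tfrc, the transferrin receptor, differed by -0.02, and Glrx5, Isca1, Abcb10 and Slc25a38 by -0.19, 0.07, -0.09 and -0.15. The enzymes after the first step and Tfrc are also made by cells other than red cells.

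Late maturation was the red cell list with most calls, 5 of 14 tested. Besides Bpgm and Tent5c these included Mkrn1, a ubiquitin ligase (0.75, SE 0.11), and Ube2l6, a conjugating enzyme for ubiquitin and ISG15 (0.99, SE 0.13). Mkrn1 was at 91.1, 94.0, 100.4 and 118 CPM in the chosen spots of the NV male, NV female, V male and V female against 57.9, 59.8, 73.3 and 51.7 CPM in the others. Ube2o, the enzyme that clears ribosomes from reticulocytes, was higher in all 4 sections without passing (0.56, SE 0.16, adjusted p = 0.13), as was Bnip3l, which removes mitochondria (0.28, SE 0.09). Car2 differed by 0.31, Tmcc2 by 0.21, Bcl2l1 by 0.11, Fbxo7 by 0.08, Xpo7 by 0.05, Blvrb by -0.09 and Prdx2 by -0.15. The median of the list was 0.30 and kept its sign in the 10 alternatives computed for lists, from 0.18 to 0.40.

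None of 6 tested erythroid transcription factors and receptors passed. Tal1 differed by 0.47 (SE 0.21), Nfe2 by 0.34, Bcl11a by 0.13, Lmo2 by 0.04, Zfpm1 by 0.03 and Epor by -0.08. The other globins, which include embryonic forms, were counted too rarely to test, at 0 to 5.02 CPM in sum over 6 genes in the chosen spots.

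**Figure D2:**
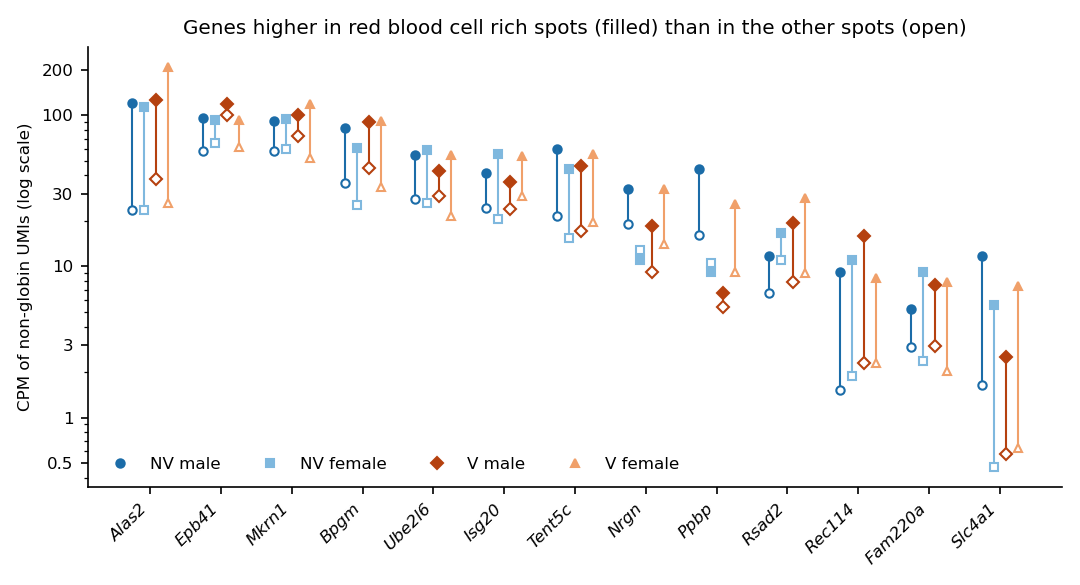
Level of 13 of the genes called higher (CPM of non-globin UMIs, log axis) in the chosen spots (filled) and the other spots (open) of each section, joined by a line; Gm42418 lies off this scale. The filled symbol is the upper one for every gene and section except Ppbp and Nrgn in the NV female.

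Promoter stretches of 3 of these genes are shown as those of the globins were, with the same motifs in capitals, because the genes rose together in sums that left the globins out.
Alas2 (chrX:150547297-150547416, plus strand): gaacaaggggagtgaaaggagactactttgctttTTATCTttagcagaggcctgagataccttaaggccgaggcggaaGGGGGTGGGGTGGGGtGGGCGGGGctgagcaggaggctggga
Bpgm (chr6:34476236-34476355, plus strand): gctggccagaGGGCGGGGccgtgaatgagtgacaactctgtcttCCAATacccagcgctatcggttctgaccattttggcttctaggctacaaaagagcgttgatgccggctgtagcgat
Tent5c (chr3:100489193-100489312, minus strand): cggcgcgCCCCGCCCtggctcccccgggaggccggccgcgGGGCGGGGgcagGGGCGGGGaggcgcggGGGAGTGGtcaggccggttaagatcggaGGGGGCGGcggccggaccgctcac
The Alas2 stretch holds AGATAA on its reverse strand, a match found in 4.36% of all promoter stretches. Of the 15 genes called higher, 12 had a promoter in the RefSeq table. Of these, 9 held the pattern CCNCNCCC, in most without the letters CACCC, 5 held CCAAT and 2 AGATAA. These letters were not tested against the levels.

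Alas2 was higher at higher globin share among the other spots too. The other spots of each section were cut into 9 bins of rising globin share, with the chosen spots as the 10th. Alas2 went from 7.71 CPM in the lowest bin of the NV male to 44.7 in the 9th and 121 in the chosen spots, and in the V female from 7.35 to 81.5 and 208. In the V male, where the lowest bin already held 0.970% globins, it went from 23.0 to 77.8 and 125. Alas2, Bpgm, Tent5c, Mkrn1 and Epb41 were each highest in the chosen spots in 4 of 4 sections, and Ube2l6 in 3. The lowest bin held the lowest level in 3 sections for Alas2, Bpgm and Mkrn1, in 2 for Tent5c and Ube2l6 and in 1 for Epb41. Epb41 in the V male was at 96.9 CPM in the lowest bin, 89.2 in the 9th and 119 in the chosen spots. These are descriptions of spots ordered by the globins.

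**Figure D3:**
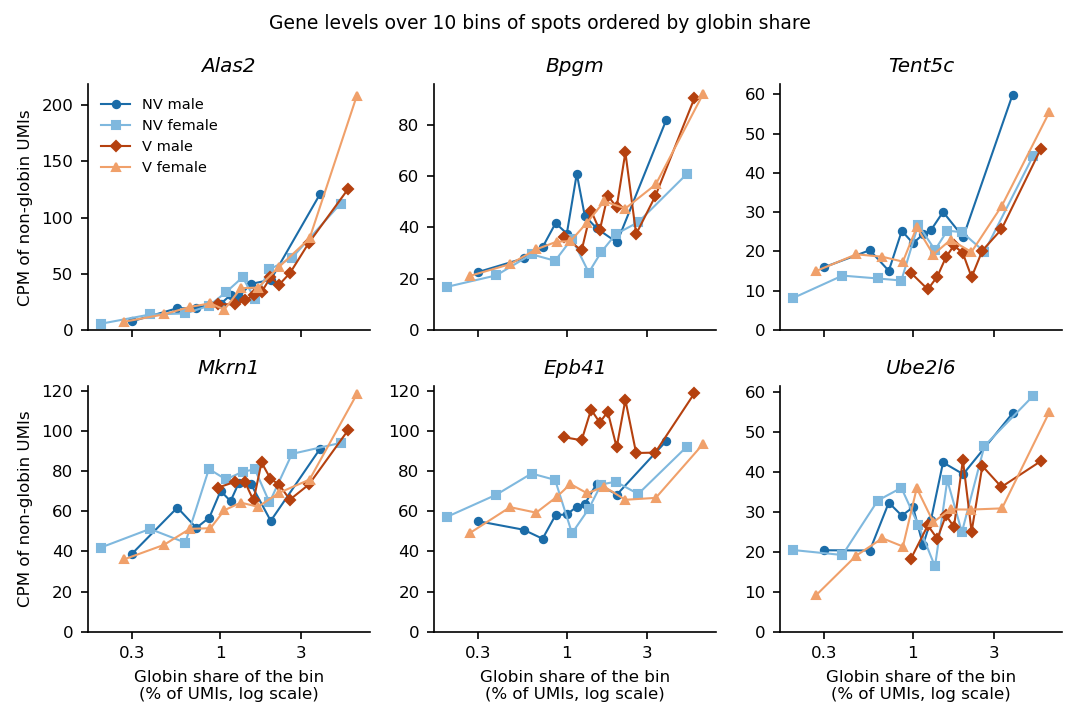
Level of 6 red cell genes (CPM of non-globin UMIs) against the globin share of 10 bins of spots (percent of UMIs, log axis), 1 line per section, the rightmost point of each line being the chosen spots. Alas2 rises in all 4 sections to 112 to 208 CPM, while Epb41 and Mkrn1 start from a higher base.

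Set against the globins, Alas2 differed less between chosen and other spots than Bpgm, Mkrn1 and Epb41 did, and its direction varied between sections. There were 29.9, 20.8, 20.8 and 30.5 Alas2 UMIs per 10000 globin UMIs in the chosen spots of the NV male, NV female, V male and V female, and 25.5, 26.6, 20.3 and 25 in the other spots. The 95% Poisson intervals, which cover counting error only, overlapped in 3 sections but not in the V female (27.6 to 33.5 against 23.3 to 26.8). Bpgm differed more, with 20.3, 11.2, 15.0 and 13.5 UMIs per 10000 globin UMIs in the chosen spots and 38.2, 29.0, 24 and 32.2 in the other spots. Mkrn1 was at 16.6 to 22.5 inside and 39.1 to 67.6 outside, and Epb41 at 13.7 to 23.5 inside and 53.5 to 74.0 outside. The globins are part of both the choice and this ratio, so no test was made.

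**Figure D4:**
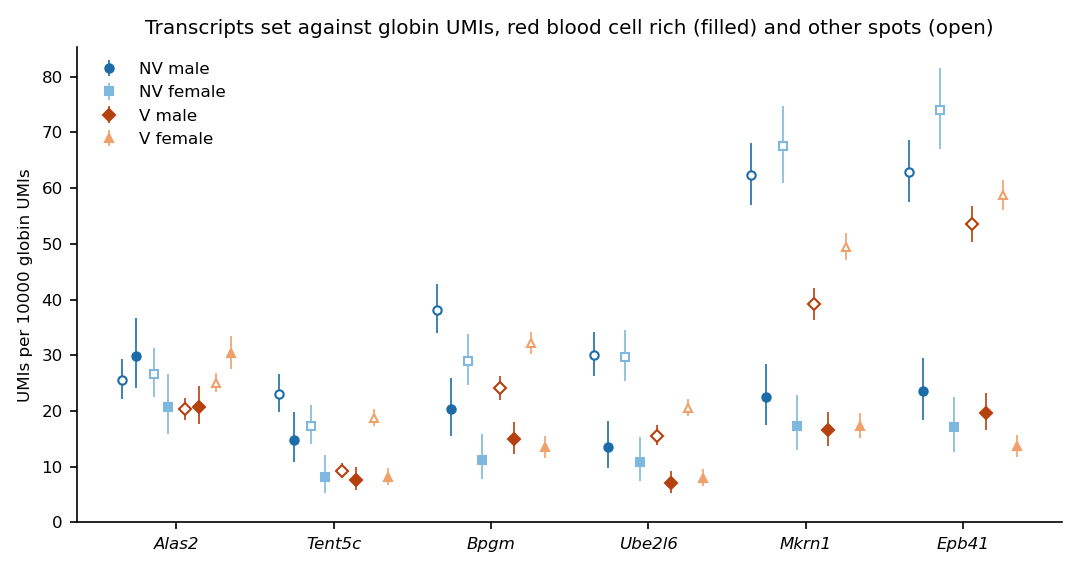
UMIs of 6 red cell genes per 10000 UMIs of the 4 globins in the chosen spots (filled) and the other spots (open) of each section, with 95% Poisson intervals. Filled and open symbols lie near each other for Alas2, at 20.3 to 30.5, and far apart for Mkrn1 and Epb41.

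The remaining 7 genes called higher were outside the red cell lists. Rec114, a gene of meiotic recombination, was counted 7, 6, 19 and 17 times in the chosen spots and 13, 12, 24 and 73 times in the others (log2 fold change 2.30, SE 0.30). Its annotated span, chr9:58652850-58743964, overlaps another gene model on the same strand, so the transcript behind its counts is uncertain. Fam220a was counted 4 to 16 times in the chosen spots (1.55, SE 0.32). Rsad2 and Isg20, both interferon-induced antiviral genes, differed by 1.24 (SE 0.21) and 0.83 (SE 0.13) and were higher in all 4 sections. Gm42418, a non-coding gene model that overlaps ribosomal RNA sequence, was at 6647 to 11179 CPM against 4392 to 7972 CPM (0.53, SE 0.10).

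Ppbp and Nrgn, both abundant in platelets, were the 2 genes called of 9 tested in the platelet list, whose median was 0.62. Ppbp, the precursor of a platelet chemokine, was at 44.3, 9.22, 6.69 and 25.7 CPM in the chosen spots of the NV male, NV female, V male and V female against 16.2, 10.6, 5.38 and 9.12 CPM (1.10, SE 0.23, adjusted p = 0.035). Nrgn was at 32.6, 11.1, 18.4 and 32.6 CPM against 19.2, 12.8, 9.12 and 14.1 (0.88, SE 0.19). Neither was higher in the NV female. Pf4, the most abundant gene of the list, differed by -0.08 (SE 0.15), Gp9 by 1.2, Alox12 by 0.87, Clec1b by 0.62, Rgs18 by 0.39, Itga2b by 0.36 and Itgb3 by 0.11, none of which passed. Summed over 16 genes, the list was 1.48-fold, 0.760-fold, 1.17-fold and 1.51-fold in the NV male, NV female, V male and V female.

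None of 10 neutrophil, 12 monocyte, 16 T and NK cell or 13 B and plasma cell genes passed, with medians of 0.04, 0.16, 0.21 and 0.11. Among the neutrophil genes S100a9 differed by 0.32 (SE 0.09, adjusted p = 0.16), S100a8 by 0.12, Lcn2 by 0.11 and Retnlg by 0.11. Trbc2 and Gzma of T and NK cells differed by 0.41 and 0.42, and Ace and Plac8 of the monocyte list by 0.16 each.

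Genes of the alveolar wall had mostly positive values without passing. All 10 alveolar type 1 genes (median 0.27), all 12 type 2 genes (0.16) and all 12 general endothelial genes (0.22) had positive values, and none was called. Within parenchyma spots alone the medians were 0.11 for type 1 genes, -0.03 for type 2 genes and 0.10 for general endothelial genes. Ager, a receptor made by type 1 cells, differed by 0.29 (SE 0.11), Sftpc, surfactant protein C, by 0.18, Cldn5, an endothelial junction protein, by 0.34 and Emp2 of the aerocyte list by 0.25. The summed type 1 list was 1.09-fold, 1.73-fold, 0.971-fold and 1.29-fold in the NV male, NV female, V male and V female, so the NV female had the largest value and the V male lay on the other side of 1. The lists of general capillaries, aerocytes and pericytes had medians of 0.20, 0.24 and 0.18. Those of arteries and veins and of endothelial clotting control had 0.03 and 0.03, where Mgp differed by -0.04, Vwf by 0.06 and Thbd, thrombomodulin, by 0.23.

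The lists of heart muscle, fat and club cells held 12 of the 59 genes called lower. They were 6 of 12, 3 of 8 and 3 of 9 genes tested, where 0.455% of all genes were called lower. All 12 cardiac muscle genes were negative (median -0.90), and 6 were called (Myl7, Tnni3, Tnnt2, Pln, Sln and Myl4). Myl7, the atrial myosin light chain, was at 3331, 1287, 0 and 1115 CPM in the chosen spots of the NV male, NV female, V male and V female against 3664, 4151, 2.30 and 2033 CPM in the others (-0.98, SE 0.20). The V male section held hardly any cardiac transcripts (30.1 CPM summed over 12 genes in its chosen spots, against 5643 to 15829 in the other sections), and only its summed ratio was above 1. Among muscle genes mostly outside that list, Mb (myoglobin), Myoz2, Hspb7, Actn2, Ldb3, Mybphl and Pln fell by 1.08, 1.09, 1.05, 0.99, 0.97, 0.97 and 0.96 on the log2 scale. Myl4 and Sln differed by -0.89 and -0.92, while Myh6 did not pass (-0.87, adjusted p = 0.058).

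All 8 adipocyte genes tested were also negative (median -0.71), and 3 were called: Thrsp (-0.81, SE 0.12), Retn, resistin (-0.78, SE 0.15), and Adipoq, adiponectin (-0.74, SE 0.14). Car3, a carbonic anhydrase of fat and muscle, was at 253, 752, 5.02 and 855 CPM against 365, 2152, 6.72 and 1448 (-1.0, SE 0.15). Gpt2 fell by 0.94. Of 9 club cell genes 3 were called, the secretoglobins Scgb3a2 (-1.01, SE 0.14) and Scgb3a1 and the airway defence gene Bpifa1 (-0.65, SE 0.13), while Scgb1a1, the most abundant of them, did not pass (-0.61, adjusted p = 0.076). Scgb3a1 was at 5.21, 27.7, 8.36 and 753 CPM against 11.8, 70.7, 12.3 and 1378 (-1.0, SE 0.14).

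The remaining lists gave 1 call. C1qb, a complement gene of macrophages, was the only one of 14 genes of interstitial macrophages and red cell clearance to pass (-0.48, SE 0.10), and no gene of alveolar macrophages passed (Chil3 0.13). No gene passed among 19 of haem and iron handling (median -0.09, with Fth1, ferritin heavy chain, at -0.05 and Hp, haptoglobin, at -0.28) or among 14 of oxygen sensing (median -0.11, Epas1 0.20, Vegfa 0.14). Smooth muscle genes had a median of -0.14 (Acta2 -0.18), fibroblast genes -0.20 (Dcn -0.37), ciliated cell genes -0.56 and mesothelial genes 0.04, again with no call.

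**Figure D5:**
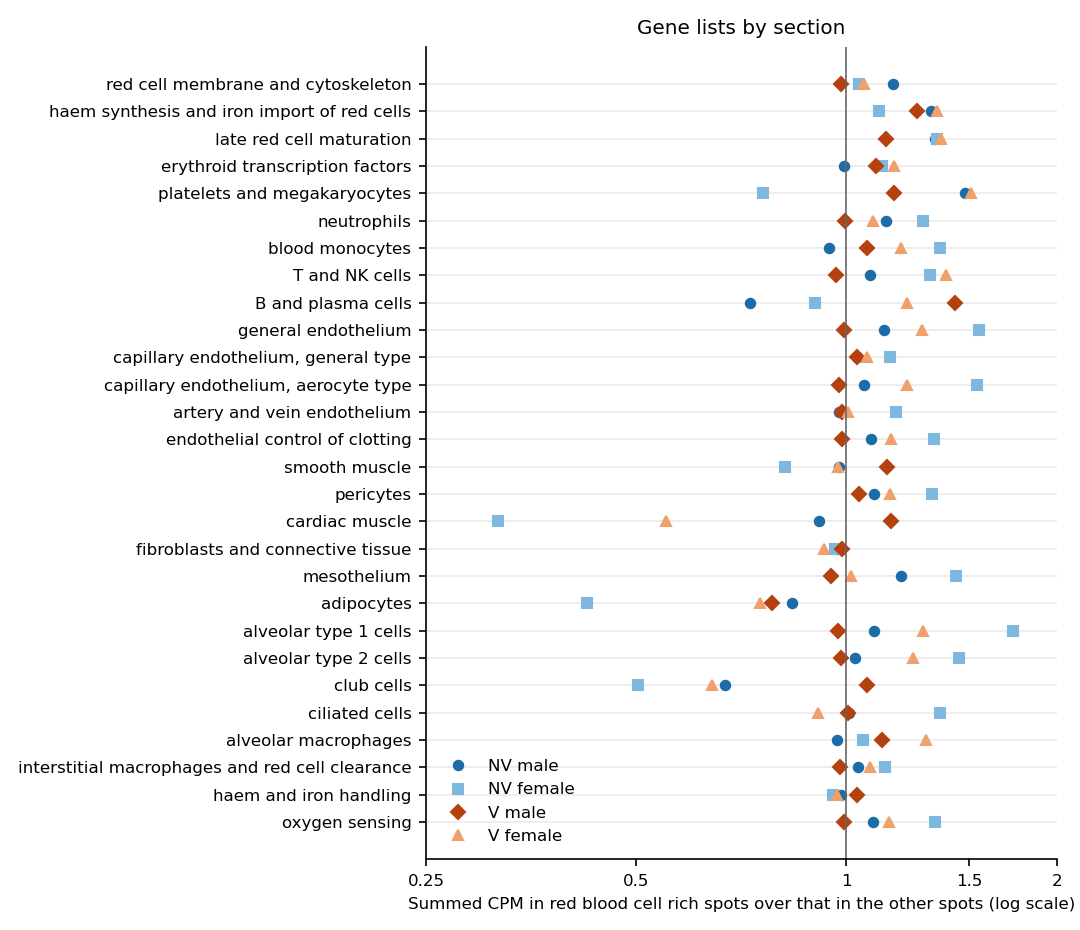
Summed level of each gene list in the chosen spots over that in the other spots (log axis), 1 symbol per section. The symbols of late red cell maturation lie between 1.14 and 1.37, those of cardiac muscle between 0.317 and 1.16, and the V male lies near 1 for most tissue lists.

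Spot depth and tissue moved with these results. The chosen spots had a median of 8960, 10752, 6560 and 7596 non-globin UMIs in the NV male, NV female, V male and V female, against 9804, 10534, 6103 and 11919 in the other spots, so they were clearly shallower in the V female. By 6 parenchyma markers, all V male spots counted as parenchyma. Elsewhere 70.7% (NV male), 91.3% (NV female) and 87.3% (V female) of the chosen spots did, against 82.9%, 71.7% and 77.9% of the others. The part of depth and tissue in the results was not tested beyond the values that follow. Within parenchyma spots alone, 15 of 11900 genes tested were higher, 11 of them among the 15, and 14 were lower, 5 of them among the 59. There 5 of 14 late maturation genes were called higher and no gene of the platelet, club cell or adipocyte lists was called. Of 12 cardiac genes 4 were called lower (median -0.23). The fibroblast list had 3 of 12 called lower and the B and plasma cell list 2 of 13 called higher, where neither had a call over all spots. With spots chosen on a random subset of each spot's UMIs and compared on the rest, 13 genes were higher (9 shared) and 129 lower (49 shared).

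One section decided many calls. Without the V female only Alas2, Bpgm, Tent5c and Rec114 were called higher and none lower, and without the V male 35 were called higher and 205 lower. Without the NV male the counts were 11 and 115, and without the NV female 16 and 34. The medians of the cardiac, adipocyte and club cell lists stayed negative in each of these.

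Overlap with other kinds of spots differed between kinds and sections. When the top 10% of spots were taken in the same way for 14 tissue lists, each kind held between 6.15% (fibroblasts, 30 spots) and 13.1% (type 1 cells and aerocytes, 64 spots each) of the 488, and even spread over a section would give 10%. Artery and vein endothelium and type 2 cells held 34 spots each (6.97%), and club cells 41. Heart muscle held 37, with 10 of 82 in the NV male, 0 of 46 in the NV female, 16 of 156 in the V male and 11 of 204 in the V female. The V male had only 36 cardiac UMIs over all its chosen spots and 271 over its other spots. Its top 10% for this list therefore rests on very few counts and does not mark heart muscle. By the exact binomial interval, which covers counting error only, 0 of 46 allows a share of up to 7.71%. Smooth muscle held 42, with 11 of 82 in the NV male and 1 of 46 in the NV female.

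Vaped and non-vaped mice were then compared within the chosen spots. None of 10198 genes was called higher and none lower (0% in each direction, edgeR), 244 had an unadjusted p under 0.05, and DESeq2 called 3, Hspa1a, Igha and Nr4a1. Without the V male 103 genes were called and without the V female 456, where the lone V section was assumed to vary like the NV sections.

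None of the red cell genes was called between the groups. In the chosen spots Alas2, Bpgm and Mkrn1 had both V sections above both NV sections, a separation seen for 1274 of the 10198 genes tested. Epb41, Tent5c and Ube2l6 overlapped between the groups. For V against NV, Alas2 differed by 0.55 (SE 0.35), Bpgm by 0.35 (SE 0.26), Mkrn1 by 0.27 (SE 0.24), Epb41 by 0.18 (SE 0.22), Tent5c by -0.03 (SE 0.30) and Ube2l6 by -0.18 (SE 0.28). The globin share of the chosen spots was 3.89% and 5.13% in NV and 5.69% and 6.40% in V, a description only.

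The 5 genes with the lowest p for V against NV were no red cell genes, and each had both V sections on 1 side of both NV sections. Such a separation was common, with both V sections above both NV sections for 1274 of the 10198 genes and below for 1607. The stress chaperone gene Hspa1a was at 9.20 and 20.8 CPM in the V male and female against 79.4 and 109 in the NV male and female (log2 fold change -2.53, SE 0.43). Igha, the heavy chain of immunoglobulin A, was at 478 and 164 CPM against 43.0 and 29.5 (3.09, SE 0.53). The immediate-early gene Nr4a1 was at 25.9 and 26.7 CPM against 207 and 84.8 (-2.47, SE 0.46). Fgl2 and Slco2b1 differed by -1.41 (SE 0.24) and -1.73 (SE 0.33). In the other spots Hspa1a was at like levels, 7.58 and 19.6 CPM in V and 77.6 and 97.5 in NV.

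The difference of the 2 contrasts, chosen against other spots in V and in NV, gave no call among 12962 genes (0% in each direction, edgeR, with 403 at an unadjusted p under 0.05 and none by DESeq2). For Alas2 this difference was 0.20 (SE 0.33), for Bpgm 0.08 (SE 0.22), for Tent5c 0.01 (SE 0.24) and for Mkrn1 0.27 (SE 0.24). The lowest p belonged to Gm16136 (-2.31, SE 0.55), Syn1, Ighm, Cfp (1.38, SE 0.36) and Tmem126a (1.19, SE 0.32). Ighm, the heavy chain of immunoglobulin M, was at 572 and 850 CPM in the chosen spots of the NV male and female against 847 and 1116 in the others, and at 121 and 260 CPM against 115 and 215 in the V male and female (0.73, SE 0.19). Syn1 was at 0 CPM in the chosen spots of both NV sections and at 2.51 and 3.96 CPM in those of the V male and female, which stand for 3 and 8 UMIs. In the other spots Syn1 was at 3.29, 3.95, 0.768 and 1.45 CPM in the NV male, NV female, V male and V female.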

How the data were processed

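Visium libraries of 4 lung sections (2 V, 2 NV) were analysed. The authors aligned reads with Space Ranger to mm10 and deposited raw UMI counts per gene and spot; normalised values of Seurat 4.0.3 were not used. The count tables held 32285 genes. Members were chosen by the globin rule, and UMI counts were summed per section over members and over other spots, without the 4 globins. Sums held 542496 to 2022035 UMIs in members and 6326346 to 31811980 in other spots. The members and gene lists were chosen with earlier results of these data known, so lists are given as counts and medians.

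Sums were fitted with edgeR 4.0.16 (R 4.3.3; filterByExpr, TMM, quasi-likelihood test, Benjamini-Hochberg adjustment), with section as a term for members against other spots. Log2 fold changes are on this scale and CPM are UMIs per 1000000 non-globin UMIs. Alternatives used DESeq2 1.42.0, limma 3.58.1 on log2(CPM + 1), other scalings, filters, limits, thinning to 2000 UMIs and left-out sections. The fits were tested on simulated data, drawn with 1 fixed spread for all comparisons and no differences between sections. That spread lay well under the one fitted for V against NV (common biological coefficient of variation 0.283), so these simulations cannot vouch for that comparison. Named genes were the globins, every tested gene of the red cell and platelet lists, the most abundant genes of the other lists (up to 4), up to 12 called genes at each end with 1 sign in all sections and at least 20 CPM, and the 5 lowest p where nothing was called. Fam220a, Rec114, Rsad2, C1qb, Tnni3, Tnnt2, Lars2 and the V against NV values of red cell genes were chosen after values were seen. With 4 sections in pairs an exact test cannot go below 0.125. For members against other spots, p-values measure how the difference within a section varies over these sections, 1 from each mouse. For the difference of the contrasts they measure that variation within each group. For V against NV they measure the spread between the sections of a group, which are 1 male and 1 female. All pairs of slides share part of 1 barcode set, so equal barcodes mark positions and not shared cells. Spot positions were not analysed here. Some tested genes that enter the counts are not reported here by name.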

Additional observations from a re-analysis of the deposited data

Results flagged for a closer look

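The summed level of the B and plasma cell list in red blood cell rich spots lay on opposite sides of that of the other spots in the 2 groups, at 0.727-fold and 0.902-fold in the NV male and NV female and 1.43-fold and 1.22-fold in the V male and V female. The difference was not tested for the list. The sum is weighted towards its abundant immunoglobulin genes, and the median log2 ratio per gene gave another order, at 0.13, 0.12, -0.09 and 0.33 in the NV male, NV female, V male and V female. Igkc, the most abundant gene of the list, differed between the contrasts of V and NV by 0.86 (SE 0.25) and Ighm by 0.73 (SE 0.19), neither past the adjusted threshold by edgeR. Some alternatives called immunoglobulin genes in this difference, among them Igkc and Jchain with the highest 5% of spots, Igkc without the NV female, Jchain without the V female, and Igha and Jchain in parenchyma spots.

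The summed level of the artery and vein list lay below that of the other spots in both males, at 0.975-fold (NV) and 0.984-fold (V), and above it in both females, at 1.18-fold (NV) and 1.01-fold (V). This difference was not tested either, and all values but that of the NV female lay close to 1. The median log2 ratio per gene was positive in all 4 sections, at 0.16, 0.27, 0.00 and 0.05 in the NV male, NV female, V male and V female.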

How the results depend on the processing

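Members against other spots gave 15 genes higher and 59 lower. The counts were 8 and 12 with DESeq2's Wald test, 30 and 415 with no filter on low counts, 33 and 471 with the highest 20% of spots, and 8 and 8 with spots thinned to 2000 UMIs. The lower count was 30 with the highest 5% of spots, 140 with spots of at least 2000 UMIs, 14 in parenchyma spots, 129 with members picked on a random subset of the UMIs, and 5 with limma on mean CPM. With no replicate block, that is no section term, both were 0, with 167 genes at an unadjusted p under 0.05. With each section left out, 4 to 35 genes were higher and 0 to 205 lower. Hspb7 turned to 0.28 after thinning.

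V against NV gave 0 and 0. DESeq2 gave 1 higher and 2 lower, no filter 43 and 78, and left-out sections 0 to 101 and 0 to 355. The replicate block by replicate number gave 0 and 0 (218 genes at an unadjusted p under 0.05), and no label says that a number marks more than sex. The difference of the contrasts gave 1 higher with no filter, 2 with the highest 5% of spots, 4 and 5 in parenchyma spots, and 0 to 34 and 0 to 6 with each section left out. The cause of these moves was not tested. Depth limits Slc4a1, Rec114 and Fam220a, with under 20 UMIs in each section's members. With 2 sections per group, changes of the size seen between mice of 1 group cannot be told apart from an effect of vaping.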

Other observations

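Rsad2, Isg20 and Ube2l6, called higher in red blood cell rich spots, are also known as interferon-stimulated genes. A list of 15 other interferon-stimulated genes, written after these values were seen and given without a test, did not rise with them. Of its 14 genes tested, 7 were positive and 7 negative, the median log2 fold change was -0.00 and the values ran from -0.30 to 0.20. Summed over the list, the members were at 1.05-fold, 0.901-fold, 1.02-fold and 1.13-fold the other spots in the NV male, NV female, V male and V female. Rsad2 in the members was at 11.7, 16.6, 19.2 and 28.2 CPM in the same order.

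Gm42418 was higher in the members than in the other spots, from 1.26-fold in the V male to 1.87-fold in the V female. Alas2 went from 3.30-fold to 7.97-fold in the same sections, and Epb41 from 1.18-fold in the V male to 1.63-fold in the NV male. The lowest level of Gm42418 stood in the bin of lowest globin share in 4 of 4 sections, and its highest in the members in 3. Lars2, a mitochondrial leucyl-tRNA synthetase gene chosen after its values were seen, also had its lowest level in that bin in 4 of 4 sections, at 562, 232, 383 and 107 CPM in the NV male, NV female, V male and V female, and stood at 1237, 634, 618 and 504 CPM in the members. Unlike Gm42418, Lars2 was not called higher in the members.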
